A study of Mus musculus with 6 samples.

Results

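The transcripts described here are those of the circadian clock genes Arntl, Clock, Npas2, Per3, Cry1, Cry2, Nr1d1, Dbp and Tef, measured in 3 cell populations sorted from mouse hind limb muscle at 2 ages. Of the 10 genes named for the set, 9 were matched by symbol to a probe with a gene name, out of 19321 named genes on the array, and Per2 was not analysed here. Each gene was read through its brightest probe, by the mean of the 6 deposited intensities. Only Per3 had more than 1 probe. The mice were C57BL/6, with no transgene or treatment given in the labels, and were young (8 to 10 weeks) or aged (24 to 28 months). From each age came PDGFRa+ mesenchymal progenitors (interstitial cells able to become fibroblasts or adipocytes), satellite cells (muscle stem cells that lie along the fibre), and a mixed population of CD31+ or CD45+ cells, which holds endothelial and hematopoietic cells. Cells of repeated sorts were pooled until there was enough RNA, and each population at each age was hybridised once, so there are 6 arrays with no replicate within a population and age. The labels used here give no time of day for any collection. The study asked which genes mark each population and which change with age.

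The circadian clock is a feedback loop of transcription. ARNTL (also called BMAL1) pairs with CLOCK or with its relative NPAS2 and switches on genes that carry an E-box, among them the Per and Cry genes, whose proteins then block the pair. In a second loop NR1D1 (REV-ERB alpha) represses Arntl through ROR elements, while DBP and TEF, transcription factors of the PAR bZIP family, act on D-boxes and carry the rhythm to output genes. In tissues with a running clock the transcript of Arntl peaks at nearly the opposite time of day to those of Nr1d1 and Dbp. Skeletal muscle has such a clock of its own.

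The promoters of Per3, Tef and Dbp are shown because these are the 3 clock genes that were lower in the aged array of every population, and that of Nr1d1 because it differed most between populations. The sequences are the 250 bases before the RefSeq gene start (GRCm38.p6), read 5′ to 3′ on the gene's strand. Capitals mark an exact match, on either strand, to the E-box CACGTG, the D-boxes TTATGTAA and TTACGTAA, or the ROR element cores TAGGTCA and TGGGTCA, and no match overlapped another.
Per3, chr4:151044666-151044915, minus strand: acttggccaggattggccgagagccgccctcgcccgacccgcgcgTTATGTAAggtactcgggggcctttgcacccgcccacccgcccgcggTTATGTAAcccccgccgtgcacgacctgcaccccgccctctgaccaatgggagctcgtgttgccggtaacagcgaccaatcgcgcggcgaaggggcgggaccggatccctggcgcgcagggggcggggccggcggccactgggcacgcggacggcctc
Tef, first start, chr15:81802423-81802672, plus strand: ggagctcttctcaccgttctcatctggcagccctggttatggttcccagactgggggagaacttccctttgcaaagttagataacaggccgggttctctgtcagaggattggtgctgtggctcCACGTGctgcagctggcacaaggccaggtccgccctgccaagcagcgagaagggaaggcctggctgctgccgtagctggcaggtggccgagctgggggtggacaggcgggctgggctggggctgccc
Tef, second start, chr15:81811164-81811413, plus strand: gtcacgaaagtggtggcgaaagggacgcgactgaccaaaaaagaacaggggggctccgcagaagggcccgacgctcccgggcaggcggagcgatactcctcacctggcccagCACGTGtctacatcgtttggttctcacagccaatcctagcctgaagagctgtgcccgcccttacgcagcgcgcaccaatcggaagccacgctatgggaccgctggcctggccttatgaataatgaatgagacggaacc
Dbp, chr7:45704997-45705246, plus strand: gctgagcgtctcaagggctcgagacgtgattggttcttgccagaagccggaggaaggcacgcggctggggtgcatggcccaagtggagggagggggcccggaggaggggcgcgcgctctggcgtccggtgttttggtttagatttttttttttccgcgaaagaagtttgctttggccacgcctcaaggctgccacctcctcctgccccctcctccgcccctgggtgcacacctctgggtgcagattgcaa
Nr1d1, chr11:98775378-98775627, minus strand: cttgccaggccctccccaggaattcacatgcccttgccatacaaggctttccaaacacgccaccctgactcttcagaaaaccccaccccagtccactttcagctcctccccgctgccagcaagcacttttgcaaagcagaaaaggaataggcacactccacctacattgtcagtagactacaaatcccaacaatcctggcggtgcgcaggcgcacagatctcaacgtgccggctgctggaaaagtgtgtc

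Per3 held TTATGTAA at 2 places, starting at bases -205 and -158 from its start. That D-box was found in 0.819% of the 32851 promoter windows of this length in the table, and for 0.977% of its 27025 genes. Per3 was the only clock gene of the 9 to hold it. Both Tef starts had an E-box, beginning at bases -127 and -138. Cry1 was the other member with an E-box in its window, at base -60. An E-box was held by 6.02% of all windows, and by 6.86% of all genes in any of their windows. The windows printed for Dbp and Nr1d1 had no match to these letters, and neither had those of Arntl, Clock, Npas2 and Cry2. A match describes the sequence and does not show that a factor binds there.

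All 9 probes were above background on all 6 arrays. The arrays had 88.4% to 92.3% of their probes above background. The correlation over genes (not independent replicates) was 0.985 to 0.992 within a population and 0.842 to 0.929 between populations. The receptor gene Pdgfra had an intensity of 4149 to 5700.4 in PDGFRa+ cells and at most 60.6 elsewhere. Pax7 had 1055 to 1361.6 in satellite cells, at most 10.6 in the mixed population and no value above background in PDGFRa+ cells. Pecam1, which encodes CD31, had 2450.7 to 2464.8 in the mixed population and at most 50.1 elsewhere, and Ptprc, which encodes CD45, had 251.7 to 414.6 there and at most 4.7 elsewhere. In the file headers the slope that joins the scanner gains was 0.465 to 0.466 on both PDGFRa+ arrays and the young satellite array. On the other 3 arrays it was 0.477 to 0.478. The arrays were split here by this slope alone into a lower and a higher group, called scanner settings (or scanner set) below. What differed between these groups was not established. The satellite pair alone spans both settings, and PDGFRa+ and mixed cells lie in different ones. The cells were measured in bulk, so fewer cells of a type and less RNA per cell cannot be told apart.

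Levels below are the authors' deposited intensities, which are linear and scaled to a median of 25 on each array. They compare arrays for 1 probe and are not comparable between probes. Log2 differences come from a separate normalization of the scanner files with an added offset of 50, which shrinks the differences of dim probes. A gene was called between populations where limma gave a Benjamini-Hochberg adjusted p under 0.05 over 18372 genes and the difference was 2-fold or more, and "rose" and "fell" refer to that adjusted p. The model gives each population a mean (2 arrays) and a shared age term, and has 2 residual degrees of freedom, so an age difference found in 1 population only adds to the error.

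**Figure D1:**
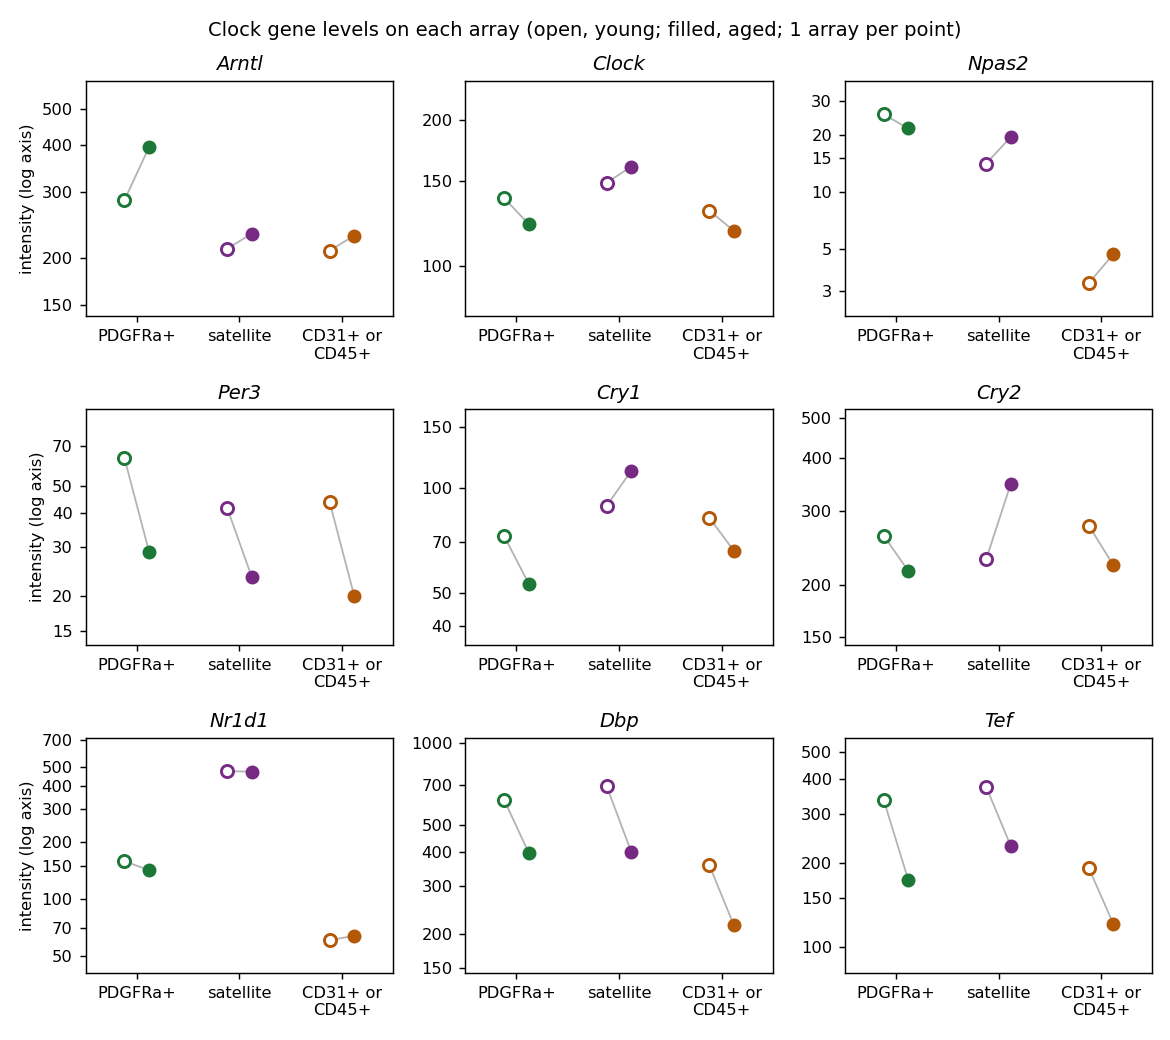
Deposited intensity (log axis, arbitrary units, 1 panel per gene) of the 9 clock genes in PDGFRa+, satellite and CD31+ or CD45+ cells, with young arrays open and aged arrays filled. Each point is 1 array. Nr1d1 stood at 474 and 476.2 in satellite cells against 60.7 to 158.9 elsewhere, and Per3, Dbp and Tef were lower in the aged array of each pair.

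Among the activators, Arntl had its highest levels in PDGFRa+ cells (285.5 young, 395.6 aged), followed by satellite cells (211.6 young, 232.2 aged) and CD31+ or CD45+ cells (209.4 young, 229.5 aged). Both PDGFRa+ arrays lay above all others, and satellite and mixed cells overlapped. The log2 difference of PDGFRa+ cells was 0.45 (SE 0.119, adjusted p = 0.0776, limma) against satellite and 0.52 (SE 0.119, adjusted p = 0.0537) against mixed cells, so neither passed.

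Clock, the partner of ARNTL, was the most even of the set. Its level was 138.2 (young) and 122.1 (aged) in PDGFRa+ cells, 148.6 and 160.3 in satellite cells, and 130.2 and 118.3 in mixed cells, a span of 1.36-fold. Satellite cells had the 2 highest values, and the other populations overlapped. The largest difference, satellite minus mixed cells, was 0.29 (SE 0.0763, adjusted p = 0.0623, limma).

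Npas2, which can stand in for CLOCK, was dim everywhere. Its level was 25.6 (young) and 21.6 (aged) in PDGFRa+ cells, 14.1 and 19.5 in satellite cells and 3.3 and 4.7 in mixed cells. The populations did not overlap, in the order PDGFRa+, satellite, mixed. Npas2 rose in PDGFRa+ over mixed cells by 0.61 (SE 0.0609, adjusted p = 0.00963, limma) and in satellite over mixed cells by 0.41 (SE 0.0609, adjusted p = 0.0184). PDGFRa+ and satellite cells, neighbours in that order, did not differ by this test (0.20, SE 0.0609, adjusted p = 0.105). At these levels the offset weighs heavily: with the authors' value table on the log2(value + 1) scale the Npas2 difference was 2.31 between PDGFRa+ and mixed cells and 1.83 between satellite and mixed cells, both past 2-fold (adjusted p = 0.00166 and 0.00317, limma). With the local background the same differences were 0.08 and 0.04 (adjusted p = 0.554 and 0.779). For PDGFRa+ against mixed cells the adjusted p of Npas2 was 0.0802 with the scanner setting as a block and up to 0.0701 with 1 array left out, over 0.05 without any of those 4 arrays. For satellite against mixed cells it was up to 0.107 with 1 array left out, over 0.05 without either mixed array or the aged satellite array.

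Nr1d1, the repressor of Arntl, separated the populations most. Satellite cells held 476.2 (young) and 474 (aged), PDGFRa+ cells 158.9 and 142.5, and mixed cells 60.7 and 64. The 3 populations did not overlap, and within each the young and aged arrays lay close together. Nr1d1 was higher in satellite than in mixed cells by 2.45 (SE 0.041, adjusted p = 0.000844, limma) and lower in PDGFRa+ than in satellite cells (-1.52, SE 0.041, adjusted p = 0.00392). It also rose in PDGFRa+ over mixed cells, by 0.93 (SE 0.041, adjusted p = 0.00244), short of 2-fold, but with the scanner setting as a block the adjusted p was 0.056 and with the local background 0.346. When the young PDGFRa+ array was left out, Nr1d1 had an adjusted p of 0.0649 for PDGFRa+ against satellite cells (-1.55), and when the aged one was, 0.0505 (-1.49), both by limma.

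The other repressors differed less. Cry1, a cryptochrome, stood at 72.8 (young) and 53.1 (aged) in PDGFRa+ cells, 88.9 and 112.1 in satellite cells, and 82.2 and 66 in mixed cells. Satellite cells were the brightest at both ages, yet the margin over the young mixed array was small, and no difference passed (-0.47 for PDGFRa+ minus satellite cells, SE 0.155, adjusted p = 0.122, limma). Cry2, the second cryptochrome, stood at 261.9 (young) and 215.8 (aged) in PDGFRa+ cells, 230.3 and 348.3 in satellite cells, and 276.6 and 222.4 in mixed cells. All 3 populations overlapped for Cry2, and its adjusted p-values were 0.509 to 0.88.

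Per3, a period gene, stood at 63 (young) and 28.9 (aged) in PDGFRa+ cells, 41.7 and 23.5 in satellite cells, and 43.7 and 20 in mixed cells. At each age PDGFRa+ cells were the brightest, and the young arrays of all populations lay above the aged ones. Per3 rose in PDGFRa+ over mixed cells by 0.29 (SE 0.0551, adjusted p = 0.0371, limma), while its difference from satellite cells (0.25, SE 0.0551, adjusted p = 0.0547) did not pass. The adjusted p of Per3 against mixed cells was 0.133 with the scanner setting as a block, and over 0.05 in 9 of 16 alternatives, among them each fit without 1 of the 4 PDGFRa+ and mixed arrays (highest 0.196).

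Dbp and Tef, the PAR bZIP factors of the set, had matching orders. Hlf, of the same family and read among the further genes below, was dim (3.9 to 15.3) and brightest in PDGFRa+ cells. It was higher in PDGFRa+ than in satellite cells by 0.35 (SE 0.0444, adjusted p = 0.0201, limma), and satellite minus mixed cells gave -0.01. Dbp stood at 620 (young) and 396.8 (aged) in PDGFRa+ cells, 695.5 and 399.2 in satellite cells, and 357.7 and 215.4 in mixed cells. Both mixed arrays were the lowest. Dbp rose over mixed cells by 0.71 in PDGFRa+ (SE 0.063, adjusted p = 0.00771, limma) and by 0.87 in satellite cells (SE 0.063, adjusted p = 0.00478). With the scanner setting as a block the adjusted p of Dbp was 0.138 for PDGFRa+ and 0.032 for satellite cells, with the local background 0.219 and 0.297, and for PDGFRa+ cells it was also over 0.05 without either mixed array (highest 0.0579). Tef stood at 336.5 (young) and 173.7 (aged) in PDGFRa+ cells, 373.6 and 229.4 in satellite cells, and 191.5 and 120.4 in mixed cells. At each age the order was satellite, PDGFRa+, mixed, and the young mixed array lay above the aged PDGFRa+ array. Tef rose over mixed cells by 0.55 in PDGFRa+ (SE 0.061, adjusted p = 0.0119) and by 0.86 in satellite cells (SE 0.061, adjusted p = 0.0047), while PDGFRa+ minus satellite cells gave -0.30 (SE 0.061, adjusted p = 0.0457), a p that was over 0.05 in 12 of 16 alternatives, including each array left out (0.0922 to 0.183). For PDGFRa+ against mixed cells the adjusted p of Tef was 0.146 with the scanner setting as a block, and over 0.05 without the young PDGFRa+ array or either mixed array (highest 0.0766). With the local background in place of the blank spots, Tef turned to 1.20 in PDGFRa+ minus satellite cells and to -0.87 in satellite minus mixed cells.

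Counted over the set, 1 of 9 clock genes was called between PDGFRa+ and satellite cells, where 7.29% of all genes tested were called in either direction and 3.2% lower. None was called between PDGFRa+ and mixed cells, where 10.1% of all genes were. Between satellite and mixed cells 1 of 9 was called, where 11.7% of all genes were called and 5.12% higher. Each of the 2 calls was Nr1d1. By adjusted p alone, 2 of 9 were lower in PDGFRa+ than in satellite cells (12.8% of all genes), 5 of 9 were higher in PDGFRa+ than in mixed cells (15.1%) and 4 of 9 were higher in satellite than in mixed cells (19.3%), with none the other way. With the scanner setting as a block these counts, in either direction, were 1, 0 and 6, and with the local background 0, 0 and 1. Without the young or the aged PDGFRa+ array they were 0, 3 and 4, and without the young or the aged mixed array 1, 1 and 3. The share of all genes by adjusted p alone is not given for these settings, so those counts have no background beside them. By adjusted p and 2-fold, the clock counts were 1, 0 and 1 with the block and 0, 0 and 1 with the local background. Calls over all genes (adjusted p and 2-fold) moved in these settings too. In the same order of comparisons, 1339, 1857 and 2147 became 1312, 835 and 1886 with the scanner setting as a block. With the local background they became 68, 289 and 342. The median difference of the 9 was -0.24 for PDGFRa+ minus satellite cells, 0.52 for PDGFRa+ minus mixed cells and 0.35 for satellite minus mixed cells, beside -0.01, 0.01 and 0.02 over all genes tested. On the normalised log2 scale both mixed arrays were below the other 4 for 4 of 9 clock genes, as for 25.1% of all genes. Both satellite arrays were above the other 4 for 3 of 9 (23% of all genes) and both PDGFRa+ arrays for 2 of 9 (17%). Clock entered the count of 4 by a margin that the deposited intensities do not show.

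**Figure D2:**
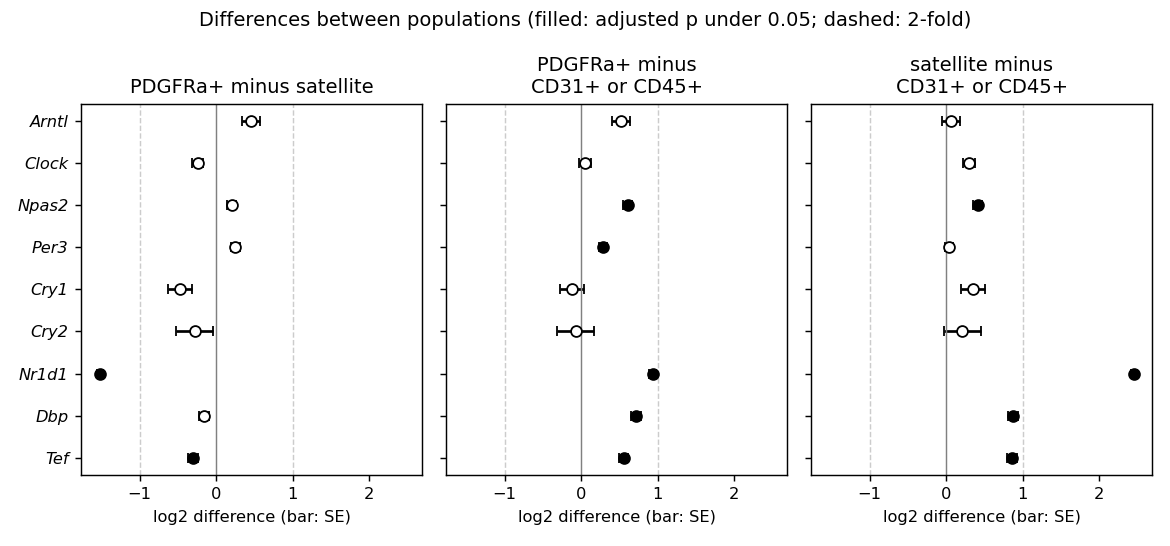
Log2 differences between populations for the 9 clock genes (x axis) with their standard errors, from the model over 6 arrays. Filled points have an adjusted p under 0.05 and dashed lines mark 2-fold; Nr1d1 alone passed 2-fold, at -1.52 and 2.45.

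Further clock genes from a list of the loop, and known outputs of the clock, were read in the same way. Of 18 further loop genes 16 had a named probe, and of 7 outputs 6 had one. Between satellite and mixed cells, where 11.7% of all genes were called, 8 of these 22 were: Nfil3, a repressor that binds D-boxes, rose in satellite cells by 2.12 (SE 0.251, adjusted p = 0.0114, limma), the ubiquitin protease gene Usp2 by 1.77, the repressor Bhlhe40 by 1.55, the Krüppel-like factor Klf9 by 1.31 and the period gene Per1 by 1.20. Timeless, whose mammalian product acts at the replication fork, fell (-2.51, SE 0.0902, adjusted p = 0.00164). Rora, the activator that competes with NR1D1, and Csnk1d, a kinase of the period proteins, made up the 8. Csnk1d lost its call in 7 of 17 alternatives (highest adjusted p 0.318). Without the young mixed array Nfil3, Usp2 and Bhlhe40 lost theirs as well, and without the aged one Usp2 and Bhlhe40 did (highest adjusted p 0.0701 with 1 array left out). The local background ended the call of each of the 8, median scaling that of Per1, Rora and Csnk1d, and the mean over both probes that of Klf9, here and between PDGFRa+ and satellite cells.

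Between PDGFRa+ and satellite cells, where 7.29% of all genes were called and 3.2% lower, 5 of 22 were called, each lower in PDGFRa+ cells. They were Nfil3 (-1.69), Per1 (-1.61), Usp2 (-1.40), Csnk1d (-1.35) and Klf9 (-1.27). Each of the 5 lost its call when either PDGFRa+ array was left out (highest adjusted p 0.154), where no gene at all was called, and with the local background. Nfil3 and Usp2 also lost it without either mixed array, and Csnk1d without either satellite array or with the scanner setting as a block (0.0596). Between PDGFRa+ and mixed cells, where 10.1% of all genes were called, 2 were, Rora (1.18) and Timeless (-2.62). With the scanner setting as a block the adjusted p was 0.081 for Rora and 0.0382 for Timeless, and the local background ended both calls. Rora stood at 286.2 (young) and 256.2 (aged) in PDGFRa+ cells, 277.9 and 235.7 in satellite cells, and 109.4 and 87.3 in mixed cells.

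Per1 and Klf9 are also glucocorticoid-induced, and some other genes of that kind and immediate-early genes differed between the populations as well. Of 12 immediate-early genes 4 were called lower in PDGFRa+ than in satellite cells, and 5 were called higher and 1 lower in satellite than in mixed cells. Of 9 glucocorticoid-induced genes, Per1 and Klf9 included, 5 were called lower in the first comparison, and 5 higher and 1 lower in the second. Per1 and Klf9 were themselves among the 5 in both comparisons. Of all genes tested, 3.2% were called lower in the first, and 5.12% higher and 11.7% in either direction in the second. Dusp1 belongs to both lists. The summed intensity of 12 immediate-early genes was 119382.2 (young) and 79059.8 (aged) in satellite cells, against 31772 to 43798.9 on the other arrays. The sum, in which bright probes weigh most, of the 9 glucocorticoid-induced genes, Per1 and Klf9 among them, was 51126.7 and 38679.7 in satellite cells against 10499.7 to 25194.4. The part of either response in the level of Nr1d1 or of these genes in satellite cells was not tested.

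With age, the clearest pattern lay in the outputs Dbp and Tef and in Per3. Each was lower in the aged than in the young array in all 3 populations. The deposited intensity of Tef was lower by 1.94-fold in PDGFRa+, 1.63-fold in satellite and 1.59-fold in mixed cells. For Dbp the folds were 1.56, 1.74 and 1.66, and for Per3 they were 2.18, 1.77 and 2.19. For Per3 the 3 aged arrays all lay below the 3 young ones, as for 3.36% of all genes (4.6% in either direction), while Dbp and Tef overlapped because mixed cells were low at both ages.

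**Figure D3:**
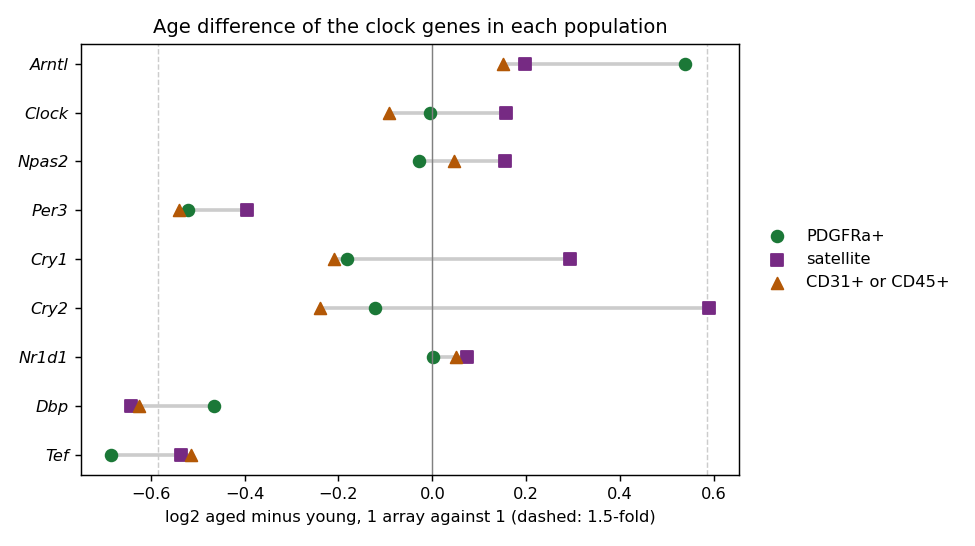
Log2 aged minus young of the 9 clock genes in each population (1 aged against 1 young array per point), with dashed lines at 1.5-fold. Per3, Dbp and Tef lie left of 0 in all 3 populations, and Cry1 and Cry2 lie right of 0 in satellite cells only among these pairs.

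On the normalised log2 scale Tef stood at -0.68 in PDGFRa+, -0.54 in satellite and -0.51 in mixed cells. The age term shared by the 3 populations was -0.58 (SE 0.0498, unadjusted p = 0.00065, limma), with an adjusted p = 0.324. Dbp stood at -0.47, -0.64 and -0.62 in the same order, with an age term of -0.58 (SE 0.0514, unadjusted p = 0.000723, adjusted p = 0.324, limma). Per3 stood at -0.52, -0.40 and -0.54, with an age term of -0.49 (SE 0.045, unadjusted p = 0.000828, adjusted p = 0.324, limma). None of the 3 passed the adjustment, and neither did any of the 18372 genes, of which 2026 (11%) had an unadjusted p under 0.05. Over the alternatives the adjusted p lay between 0.239 and 0.968 for Tef, 0.239 and 0.616 for Dbp and 0.208 and 0.616 for Per3. The age term stayed below 0 for all 3 genes in all 17 alternatives, but fell in size to -0.06 for Tef with the local background. Many of these could not have turned it. An array left out or the block averages fewer of the same age pairs, which were all below 0. The filter and fold-minimum alternatives leave the age term as it is.

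Among 17422 genes measured in all 3 pairs, ordered by the mean of their 3 age differences from the lowest up, Tef was number 32, Dbp number 33 and Per3 number 91. The middle 95% of those genes had means between -0.32 and 0.40. In that order Arntl was number 16661, near the upper end, and the other 5 clock genes lay between numbers 6502 and 14064. Tef, Dbp and Per3 were singled out because all 3 of their age differences were below 0, as for 21.1% of the 17422 genes. Their low ranks follow in part from that choice and are no separate evidence. The set itself was chosen with earlier results of these data known. A second, dimmer Per3 probe, which stood at 30.2 (young) and 10.9 (aged) in PDGFRa+ cells, 18.1 and 10.1 in satellite cells and 19.5 and 9.3 in mixed cells, was also lower in the aged array of each pair.

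**Figure D4:**
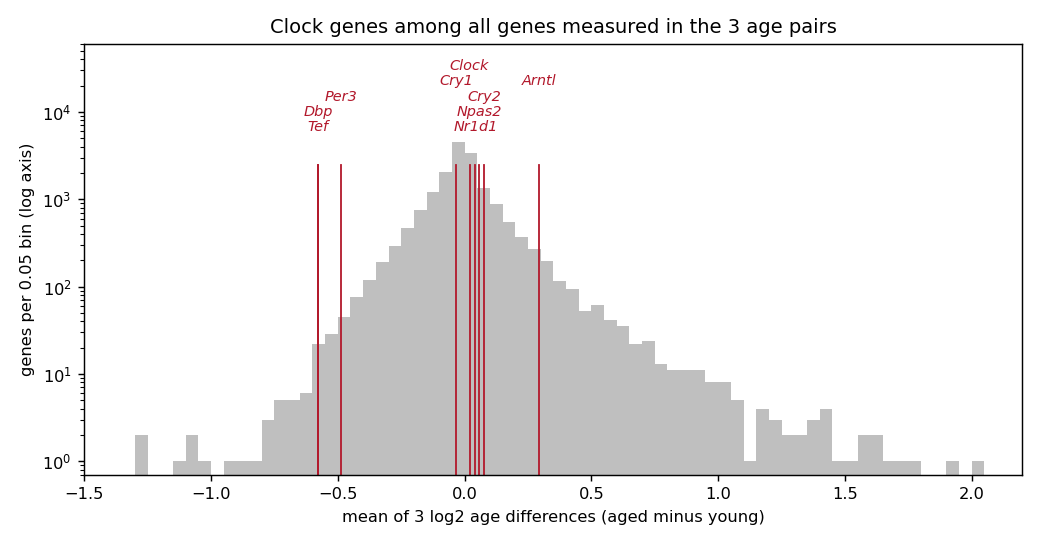
Number of genes (log axis) by the mean of their 3 log2 age differences, in bins 0.05 wide, for 17422 genes measured in all 3 pairs. Red lines mark the 9 clock genes; Tef, Dbp and Per3 lie in the lower tail at -0.58, -0.58 and -0.49, and Arntl at 0.30.

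The PDGFRa+ pair and the mixed pair each lie within 1 scanner setting. In those pairs alone the shared age term, which is the fit with the setting as a block, was -0.60 for Tef, -0.55 for Dbp and -0.53 for Per3. The summed intensity of the 12 immediate-early genes was also lower in each aged array, at 35009.3 against 43798.9 in PDGFRa+ cells and 31772 against 40637.2 in mixed cells. That of the 9 glucocorticoid-induced genes was 22097.1 against 25194.4 and 10499.7 against 15297.4. The age term was below 0 for 12 of 12 and 9 of 9 of them, with medians of -0.30 and -0.39, and none passed the adjusted test. The 9 include the clock-linked Per1 and Klf9, and the median of -0.39 is the age term of Klf9 itself. Markers of other cell types also differed between the arrays of a pair. In PDGFRa+ cells 1 of 9 measured macrophage markers was past 1.5-fold (7 higher and 2 lower, median 0.22), although their summed intensity was 2143.2 in the aged and 347.9 in the young array, and so were 3 of 6 glial (median 0.60) and 3 of 10 pericyte or smooth muscle markers (0.20), each higher in the aged array. In aged satellite cells 6 of 9 mesenchymal progenitor (median 1.19), 8 of 10 myofibre (0.97), 7 of 10 pericyte or smooth muscle (0.78) and 2 of 10 macrophage markers (0.20) were past 1.5-fold, each higher. In aged mixed cells 5 of 7 lymphocyte (median 1.04), 3 of 10 hematopoietic (0.51) and 1 of 10 macrophage markers (0.21) were past 1.5-fold and higher, and 3 of 9 mesenchymal progenitor markers (-0.13) were past it and lower. In the other marker lists and pairs at most 3 markers were past it. Of all genes measured, 2.15%, 4.39% and 2.44% were past 1.5-fold in the PDGFRa+, satellite and mixed pairs. The part of these responses and cells, and of the time of day, in the age difference of Tef, Dbp and Per3 was not tested.

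Arntl went the other way. Its aged array was higher in all 3 populations, by 0.54 in PDGFRa+, 0.20 in satellite and 0.15 in mixed cells, with an age term of 0.30 (SE 0.097, unadjusted p = 0.0457, adjusted p = 0.442, limma). With the local background this turned to -0.78. Nr1d1 was nearly level with age, at 0.00, 0.07 and 0.05 in PDGFRa+, satellite and mixed cells (age term 0.04, SE 0.0335, adjusted p = 0.702, limma). On the deposited scale its aged array was lower in PDGFRa+ and satellite cells, so the sign of Nr1d1 is not settled. In all, 3 of 9 clock genes were lower and 2 were higher in all 3 pairs, where 21.1% and 14.2% of all genes were.

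The cryptochromes split by population. Cry2 was higher in aged satellite cells by 0.59 and lower in aged PDGFRa+ (-0.12) and aged mixed cells (-0.24). Cry1 had 0.29 in satellite, -0.18 in PDGFRa+ and -0.21 in mixed cells. Clock had 0.16 in satellite cells against -0.01 and -0.09, and Npas2 0.15 against -0.03 and 0.05. The satellite pair is the one that spans both scanner settings, so setting and age cannot be told apart in it, and with 1 pair per population a difference between pairs has no test.

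Past 1.5-fold, the minimum used for a single pair, lay 1 of 9 clock genes in PDGFRa+ cells (Tef, lower; 0.951% of all genes were lower), 2 of 9 in satellite cells (Dbp, lower, and Cry2, higher) and 1 of 9 in mixed cells (Dbp, lower; 0.719% of all genes were lower). In either direction the shares over all genes measured were 2.15%, 4.39% and 2.44%. On this scale, which the offset shrinks, none reached 2-fold in any pair, where 0.425%, 1.23% and 0.58% of all genes did. With the authors' value table on the log2(value + 1) scale, the 1.5-fold counts were 3, 4 and 3 of 9. The counts over all genes rose as well, from 384, 792 and 442 to 2490, 3090 and 1646. The shares above therefore do not apply on that scale. Per3 passed 2-fold there in PDGFRa+ and mixed cells (-1.10 and -1.09), and the share of all genes past 2-fold on that scale is not given here.

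Of the further loop and output genes, 5 of the 21 measured in all 3 pairs were lower in every aged array and 2 were higher, where 21.1% and 14.2% of all genes were, so these shares lie near the background. The 5 included Wee1, a kinase that restrains entry into mitosis and an E-box target of the clock. Wee1 stood at 55.4 (young) and 20.6 (aged) in PDGFRa+ cells, 95.2 and 30.9 in satellite cells, and 39.5 and 20.8 in mixed cells, and its log2 differences were -0.61, -0.99 and -0.44. Per1 was lower in all 3 pairs as well, past 1.5-fold in mixed cells alone (-0.66). Klf9, Klf10 and Rora made up the 5, though a second, dimmer Rora probe was higher in aged satellite cells (0.31). Hlf, of the family of Dbp and Tef, did not share their age difference, with 0.02, -0.07 and 0.01 in PDGFRa+, satellite and mixed cells. None of these 22 genes passed the adjusted age test. An unadjusted p under 0.05 by limma was found for 3 of them, beside 11% of all genes tested. The median age term of the 6 outputs was -0.20 and that of the 16 loop genes 0.01, beside -0.01 over all genes.

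**Figure D5:**
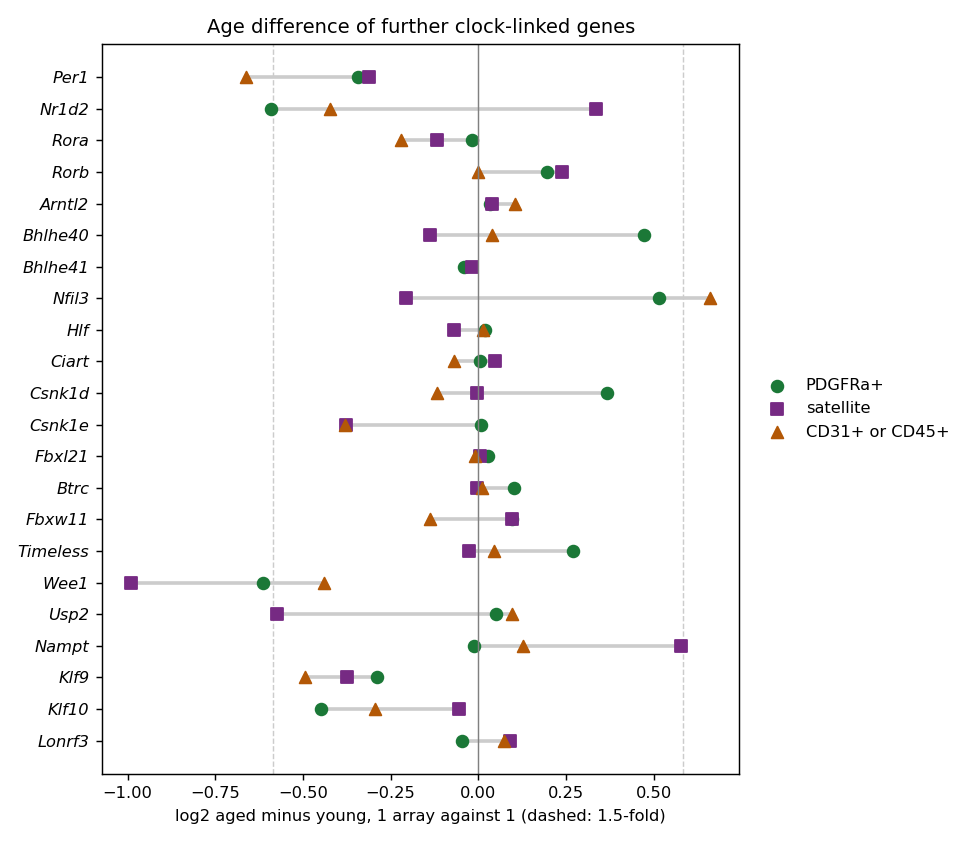
Log2 aged minus young of 22 further clock-linked genes in each population (1 array against 1), with dashed lines at 1.5-fold. Wee1 lies furthest left, at -0.99 in satellite cells, and Bhlhe41 has no point for mixed cells, where it was at background.

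Nr1d2, the paralog of Nr1d1, and Nfil3 did not keep one direction. Nr1d2 stood at 531.9 (young) and 305.8 (aged) in PDGFRa+ cells, 471.9 and 571.5 in satellite cells, and 354.7 and 251.1 in mixed cells. Its aged array was lower in PDGFRa+ (-0.59) and mixed cells (-0.42) and higher in satellite cells (0.34), the same split as for Cry1 and Cry2. Nfil3 was higher in aged PDGFRa+ (0.52) and mixed cells (0.66) and lower in aged satellite cells (-0.21). For these genes too, the satellite pair spans both scanner settings, so setting and age cannot be told apart in it.

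Over the 6 arrays the gene whose normalised log2 values most resembled those of Dbp, among 3224 genes with an SD of at least 0.5, was Tef (Pearson r = 0.976). Next came Lpar4, a lysophosphatidic acid receptor (0.968), the transcription factor Zeb1 (0.967), Etfrf1 (0.956) and the axon guidance ligand Sema3a (0.952). For Arntl they were Cthrc1, a secreted collagen triple helix protein (0.988), the protease inhibitor Serpina3n (0.983), Nrn1 (0.982), the cytokine signalling inhibitor Socs1 (0.981) and Fetub (0.959). These values describe 6 arrays that share 3 populations and 2 ages, and were picked as the highest of many.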

How the data were processed

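Per the file headers, each scanner file gives the median spot intensity at 635 nm, merged from 3 gains. The authors' deposited intensity, on a linear scale, has a median of 25 on each array. It could be rebuilt to within 0.0905 by subtracting the trimmed mean of an array's 2736 blank spots from each spot median and rescaling. RNA was amplified and labelled with Cy5, per the labels' protocols. The genome build and scanner software are not given in the sources used here. Spot medians were corrected here with limma 3.58.1 (R 4.3.3; normexp against that trimmed mean, offset 50), log2-transformed and then quantile normalised. Symbols came from the array annotation (20690 of 23473 probes), updated by Entrez identifier. For each gene the probe with the highest mean deposited intensity was used, an empty cell counting as 0. Genes above background on at least 2 arrays were tested (18372) with population and age as terms (2 residual and 1.50 prior degrees of freedom), two-sided. With no replicates, the error is the spread of the age pairs around the shared age term. The number of arrays limits the precision. Alternatives covered the background, offset, normalization, filter, probe, threshold, scanner set, value table and each array left out. All 9 clock genes were named in every comparison. Of the further loop and output genes, the called ones were named, and so were a few that were not called, such as Klf10. The clock genes and lists were chosen with earlier results of these data known.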

Additional observations from a re-analysis of the deposited data

Results flagged for a closer look

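Some genes (Cry2, Nr1d2 and Nfil3) had age differences of opposite sign in a pair of populations that lay at least 1.5-fold apart. The aged minus young log2 value of Cry2 was 0.59 in satellite and -0.24 in CD31+ or CD45+ cells. That of Nr1d2 was 0.34 in satellite and -0.59 in PDGFRa+ cells, and that of Nfil3 was 0.66 in CD31+ or CD45+ and -0.21 in satellite cells. Each of these contrasts includes the satellite pair, which spans both scanner settings, so setting and age cannot be told apart in it. With 1 array per population and age the differences between populations were not tested.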

How the results depend on the processing

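In 17 alternatives (10 for a single age pair), 1006 of 1187 single-gene values kept their direction and side of the threshold. Of the rest, 74 moved, 51 were weaker, 17 stronger and 39 reversed, and none of the reversed values had been called. Many of the 1187 could not have turned. The filter and fold-minimum settings leave a log2 difference as it is, as do the probe settings for a gene with 1 probe. So does leaving out an array outside a population comparison. The 6 arrays and 2 residual degrees of freedom limit every test. The term for the scanner set is estimated from the satellite pair alone. No paired analysis was possible because each population and age has 1 array, other than that of the fit itself, whose population term sets each aged array against the young array of its population. For the values that changed, the cause was not tested.

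With the local background, Dbp and Tef turned to 0.29 and 1.20 in PDGFRa+ minus satellite cells, Cry1 to 0.0018 in PDGFRa+ minus mixed cells, and Arntl and Tef to -0.065 and -0.87 in satellite minus mixed cells. The age terms of Arntl, Cry1 and Npas2 turned to -0.78, 0.56 and -0.07. With the scanner set as a block, Cry2 turned to 0.10 in PDGFRa+ minus satellite cells, Cry1 and Cry2 to 0.36 and 0.70 in PDGFRa+ minus mixed cells, Arntl to -0.0075 in satellite minus mixed cells, and the age terms of Clock and Cry2 to -0.049 and -0.18. With median scaling, Clock turned to -0.12 in PDGFRa+ minus mixed cells, and Arntl, Cry2 and Per3 to -0.22, -0.064 and -0.033 in satellite minus mixed cells. With the authors' value table the age terms of Clock and Nr1d1 turned to -0.069 and -0.029.

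With each array left out in turn, the PDGFRa+ minus satellite difference of Cry2 lay between -0.67 and 0.10. The PDGFRa+ minus mixed differences lay between -0.034 and 0.13 for Clock, -0.26 and 0.008 for Cry1, and -0.31 and 0.17 for Cry2. The satellite minus mixed differences lay between -0.043 and 0.17 for Arntl, -0.17 and 0.60 for Cry2, and -0.032 and 0.10 for Per3. The age terms lay between -0.049 and 0.075 for Clock, -0.20 and 0.056 for Cry1, and -0.18 and 0.23 for Cry2.

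Between PDGFRa+ and satellite cells, where 1 clock gene was called, 0 were with the local background, 2 with no fold minimum, and 0 to 1 with an array left out (0 without either PDGFRa+ array). Between PDGFRa+ and mixed cells, where 0 were called, 2 were when the background was not corrected, 2 at offset 10, 2 with the value table and 5 with no fold minimum. Between satellite and mixed cells, where 1 was called, 2 were with an offset of 10, 2 with the value table and 4 with no fold minimum.

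Past 1.5-fold in the PDGFRa+ age pair (1 clock gene) lay 4 with the local background, 2 when the background was not corrected, 2 at offset 10 and 3 with the value table, and 0 lay past 2-fold. In the satellite pair (2) there were 6 with the local background, 1 with median scaling and 4 with the value table, and 0 past 2-fold. In the mixed pair (1) there were 2 with the local background, 2 when the background was not corrected, 3 at offset 10, 2 with median scaling and 3 with the value table, and 0 past 2-fold.

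Of all genes, 1339 were called between PDGFRa+ and satellite cells, and 68 with the local background, 2213 with an offset of 10, 3011 with the value table, 4504 with no fold minimum and 0 to 1312 with an array left out (0 without either PDGFRa+ array). Between PDGFRa+ and mixed cells the 1857 became 289, 2945, 3805 and 5276 in the same order, 835 with the scanner set as a block and 1131 to 1815 with an array left out (1131 without the young PDGFRa+ array). Between satellite and mixed cells the 2147 became 342, 3382, 4429 and 6409. The age term called 0 genes in all 17 alternatives. Past 1.5-fold with age, the 384 genes of the PDGFRa+ pair became 2558 with the local background, 660 when the background was not corrected, 818 at offset 10 and 2490 with the value table, and 76 lay past 2-fold. In the same order the 792 of the satellite pair became 2884, 1276, 1544, 3090 and 221, and the 442 of the mixed pair 2368, 689, 824, 1646 and 105.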
